A study of Mus musculus with 16 samples.

Results

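Cytosolic ribosomal protein genes encode the proteins of the large (Rpl) and small (Rps) subunits of the ribosome that translates nuclear messenger RNA. They were taken here as all gene symbols that consist of Rpl or Rps and a number with at most 1 of the letters a, l, x or y, together with the stalk genes Rplp0, Rplp1 and Rplp2 and the gene Rpsa. Pseudogenes with the suffix -ps and the Rps6k kinases do not match, while Rps4l and Rpl32l do match and are annotated as processed pseudogenes in GENCODE vM21. The rule found 81 of 24421 symbols in the tables of tumour organoids, 46 of the large subunit, 32 of the small subunit and 3 of the stalk, and 82 of 51912 entries in the table of normal tissues, which adds Rpl32l. A few ribosomal proteins with other names fall outside the rule and are given beside it as a separate list of 7 genes (Fau, which is made as a fusion with a relative of ubiquitin, Gnb2l1, Rpl36al and others).

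A ribosome needs about equal amounts of each of its proteins, and their messenger RNAs are abundant in growing cells. These messenger RNAs begin with a run of pyrimidines (C and T), the 5′ terminal oligopyrimidine or TOP motif, through which mTOR signalling and Larp1 control their translation. Myc, the oncogene carried by the tumours of this study, is known to raise transcription of ribosome genes, and free Rpl5 and Rpl11 bind Mdm2, the inhibitor of p53.

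Polyadenylated RNA was sequenced from 16 libraries of C57BL/6 mouse organoids, cultures of tissue grown in a matrix. Lung-LMP1 (n = 3) and LMP1 (n = 2) come from tumours of genotype TMPL, which carries the Trp53-/- and Myc alleles, the guide sgCdkn2a and LMP1, the latent membrane protein of Epstein-Barr virus, a signalling oncoprotein of nasopharyngeal carcinoma. Lung-Ctr (n = 2) and Ctr (n = 3) come from tumours of genotype TMP, with the same alleles and guide but no LMP1. Tumours had formed in mice that received transplants in the nasopharynx. Normal_nasopha (n = 3) and Normal_lung (n = 3) are untreated organoids of nasopharynx and lung. No animal ages are given. The sample descriptions call every TMPL library a metastasis and every TMP library primary, so genotype and that description cannot be told apart, and the labels do not equate the prefix Lung with a site. The labels also do not say whether the libraries of a group came from separate animals or cultures, and the p-values describe the spread between these libraries and nothing wider.

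A further 3 count columns, deposited beside Ctr in a table named for normal nasopharynx, carry the heading of normal lung. The name normal comparator is used for them here. Over 22573 shared symbols their log2 counts correlated best with the Normal_nasopha library of the same number (r 0.981 to 0.982, against 0.894 to 0.911 with the Normal_lung libraries), and they summed to 126 to 235 CPM (a unit of counts divided by the total of their library) over 8 lung markers, against 58261 to 66822 CPM in Normal_lung. With the differently numbered Normal_nasopha libraries r was 0.949 to 0.957. Counts were identical for 38.0 to 39.8% of symbols with the Normal_nasopha library of the same number and for 28.8 to 29.3% with the other Normal_nasopha libraries. These columns are treated as neither tissue. Because the comparator may be the Normal_nasopha material counted in another way, no test set one against the other.

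Library totals ran from 12535166 to 21737184 counts. CPM in the text use the total count of each library. Log2 fold changes come from edgeR after TMM scaling, with the standard error (SE), and a gene was called at an adjusted p (Benjamini-Hochberg, over all genes tested) under 0.05. Summed over 10 epithelial markers, the LMP1 libraries lay at 931 to 1408 CPM and the Ctr libraries at 3027 to 5094 CPM, while over 10 fibroblast markers LMP1 lay at 1089 to 1498 CPM and Ctr at 1.32 to 553 CPM, the upper value from 1 library. The Lung-prefixed libraries did not show this contrast: epithelial markers summed to 5511 to 5968 CPM in Lung-LMP1 and 5043 to 6257 CPM in Lung-Ctr, and fibroblast markers to 0.406 to 1.59 CPM in Lung-LMP1, with 5 of 10 at 0, and 0.864 to 5.78 CPM in Lung-Ctr, with 4 of 10 at 0. Vim made up most of the fibroblast sum in LMP1, at 1017 to 1350 CPM. Col3a1 (24.8 to 60.8 CPM) and Col6a1 (31.1 to 64.6 CPM) came next there. Col1a1 and Col1a2 were at most 1.66 CPM in LMP1, and Thy1 had no count. Of the epithelial markers only Krt8 (295 to 416 CPM in LMP1, 322 to 477 CPM in Ctr) and Krt18 overlapped between LMP1 and Ctr. Myc itself was at 1841 to 2005 CPM in LMP1 and 627 to 819 CPM in Ctr, and at 583 to 1211 CPM in Lung-LMP1 and 457 to 568 CPM in Lung-Ctr. Trp53 was at 81.8 to 107 CPM in Lung-LMP1 and 58.3 to 86 CPM in Lung-Ctr, 105 to 109 CPM in LMP1 and 58.1 to 77.9 CPM in Ctr, and 63.3 to 156 CPM in the comparator, so reads of the gene were present in all tumour groups. The extent of the deletion is not given in the sources used here, and a count over the whole gene does not check a partial one. The part of these markers and of Myc in the results below was not tested, and in bulk RNA a change in the kinds of cells present and a change in RNA per cell cannot be told apart.

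The start sites of the members were searched for the pyrimidine run and for short words known from promoters of these genes. Promoters were found for 61 members in RefSeq (GRCm38.p6). In the window from 20 bases before to 20 bases after the annotated start, a run of at least 8 bases of C or T that begins with C, on the transcribed strand, was found in 28 of 61 members (45.9%) and in 12.4% of 27025 genes. In the 300-base promoter on both strands, the ETS-type word CCGGAAG was found in 24 members (39.3%, against 9.12% of all genes), the E-box CACGTG in 5 (8.2%, against 7.24%) and the YY1-type word AAGATGGC in 4 (6.56%, against 2.88%). The reverse complement of CCGGAAG begins with 5 pyrimidines, so it can share bases with a pyrimidine run. These are matches of letters and not binding sites. The sequences below are those of the members with a promoter that had the largest called log2 fold changes between the genotypes, 6 higher and 3 lower in TMPL. Each runs 5′ to 3′ on the strand of the gene, with 60 bases before the start and the first 20 transcribed bases, and capitals mark the pyrimidine runs. The higher members were Rpl28 at chr7:4792905-4792984 (plus), Rps28 at chr17:33824543-33824622 (minus), Rps15 at chr10:80292371-80292450 (plus), Rpl35 at chr2:39005112-39005191 (minus), Rps10 at chr17:27635225-27635304 (minus) and Rpl36a at chrX:134585594-134585673 (plus). The lower members were Rps15a at chr7:118116128-118116207 (minus), Rplp2 at chr7:141447591-141447670 (plus) and Rpl10 at chrX:74270756-74270835 (plus).
Rpl28: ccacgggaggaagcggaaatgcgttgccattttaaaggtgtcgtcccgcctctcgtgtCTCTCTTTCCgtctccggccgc
Rps28: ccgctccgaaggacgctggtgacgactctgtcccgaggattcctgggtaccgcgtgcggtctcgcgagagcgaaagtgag
Rps15: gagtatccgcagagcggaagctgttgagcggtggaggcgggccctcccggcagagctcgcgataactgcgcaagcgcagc
Rpl35: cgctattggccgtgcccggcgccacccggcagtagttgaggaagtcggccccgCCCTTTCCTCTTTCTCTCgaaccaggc
Rps10: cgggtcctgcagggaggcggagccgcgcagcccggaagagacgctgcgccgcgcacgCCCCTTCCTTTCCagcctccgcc
Rpl36a: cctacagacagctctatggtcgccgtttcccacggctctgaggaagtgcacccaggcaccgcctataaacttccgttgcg
Rps15a: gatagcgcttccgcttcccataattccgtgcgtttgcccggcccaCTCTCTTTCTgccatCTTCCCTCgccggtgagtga
Rplp2: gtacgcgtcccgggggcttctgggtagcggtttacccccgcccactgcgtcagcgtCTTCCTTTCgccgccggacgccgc
Rpl10: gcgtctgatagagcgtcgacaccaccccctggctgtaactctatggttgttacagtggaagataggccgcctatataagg

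Among these sequences Rpl28, Rpl35 and Rps10 of the higher members and Rps15a and Rplp2 of the lower held a run, and Rps28, Rps15, Rpl36a and Rpl10 held none in the window. Of the members higher in TMPL, 10 of the 17 with a promoter held a run and 10 held CCGGAAG. Of the members lower in TMPL, 3 of 6 held a run and 4 held CCGGAAG. Among members that were not called, 14 of 33 held a run and 8 held CCGGAAG.

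The counts of these genes differed between both kinds of deposited table, and this bounds what their levels can show. The ratios below compare counts of the same material only if the comparator is the Normal_nasopha material, which the labels do not settle. Among symbols with at least 300 counts over the 3 Normal_nasopha libraries, the comparator count divided by the Normal_nasopha count had a median of 2.23 over 77 members (quartiles 1.3 and 3.44) and of 0.877 over all 10162 shared symbols (quartiles 0.856 and 0.901). The ratio exceeded 2 in 42 members (54.5%, against 1.84% of all shared symbols). Rpl23a, Rpl13a and Rpl35 had ratios of 82.1, 30.7 and 25.4.

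At the other end, 4 members were almost without counts in the symbol tables. Rpl26 had 0 counts in the comparator and 24134 in Normal_nasopha, Rpl30 had 35 and 10685, Rpl34 had 94 and 11205, and Rps27 had 31 and 2938. Rpl26 also had 0 counts in every tumour library and 5347 to 5549 counts in the Normal_lung libraries. Rpl24 went the other way, with 32619 counts in the comparator and 31 in Normal_nasopha. Ribosomal protein pseudogenes, of which GENCODE vM21 lists 300 with the suffix -ps, took 0.0026 to 0.0029% of the comparator counts and 0.23 to 0.286% of the Normal_nasopha counts. The counting rule is not given in the sources used here, so reads shared between a gene and its copies could have been assigned differently, which was not tested. By library number the ratio of Rpl13a was 20.2, 39.4 and 38, and that of Rpl23a was 65.4, 88.2 and 96.4. As a description across 75 members, the log2 ratio had r = -0.013 and rho = 0.1 with the log2 fold change of TMPL against TMP, and r = -0.056 and rho = 0.208 with its absolute size. Levels are therefore compared only within a kind of table.

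**Figure D1:**
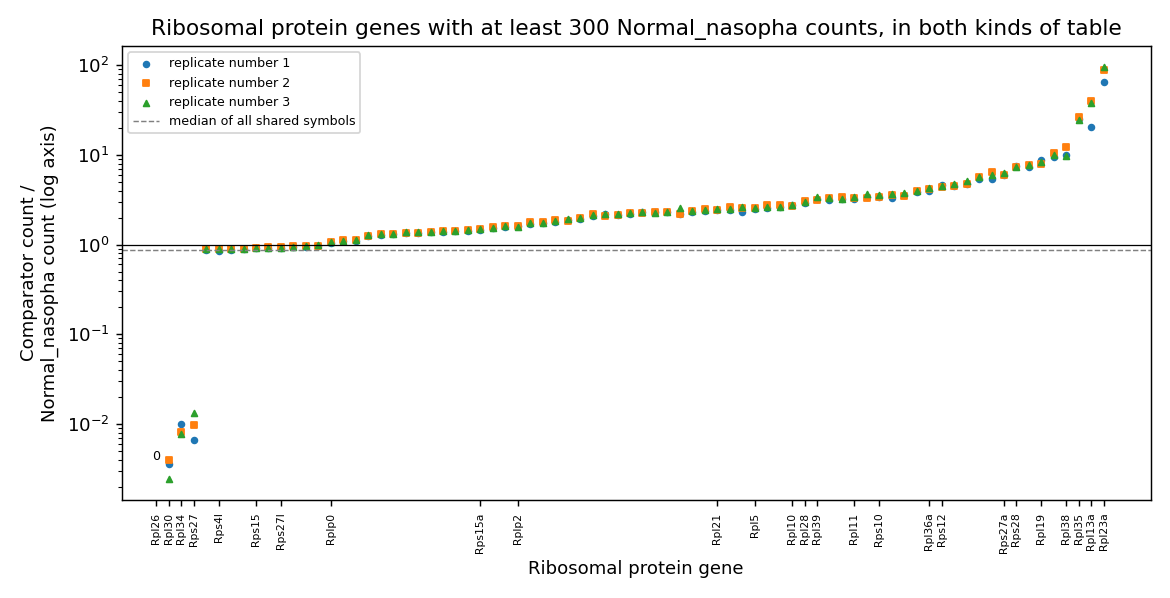
Comparator count divided by the Normal_nasopha count of the same number (log axis) for each ribosomal protein gene with at least 300 Normal_nasopha counts, 1 marker shape per library number and some of the genes labelled. Most genes lie above the line at 1 and above the median of all shared symbols (dashed, 0.877), Rpl26 is at 0, and Rpl30, Rpl34 and Rps27 lie far below 1.

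As a share of all counts, the members overlapped between Lung-LMP1 and Lung-Ctr but not between LMP1 and Ctr. They took 5.61, 5.42 and 6.04% of counts in Lung-LMP1 and 4.96 and 6.6% in Lung-Ctr, and 6.67 and 5.97% in LMP1 and 5.78, 5.24 and 5.31% in Ctr. The Lung-LMP1 values lie between both Lung-Ctr values, while both LMP1 libraries lie above the Ctr libraries. The comparator libraries held 6.02, 6.46 and 7.12%, all above Ctr. In the other table the members took 2.85, 2.98 and 3.27% in Normal_nasopha and 1.89, 2.19 and 2.12% in Normal_lung, without overlap. Group means were 5.69 ± 0.318% in Lung-LMP1 (SD, n = 3) and 5.78 ± 1.16% in Lung-Ctr (SD, n = 2), and 6.32 ± 0.495% in LMP1 (SD, n = 2) and 5.44 ± 0.294% in Ctr (SD, n = 3).

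**Figure D2:**
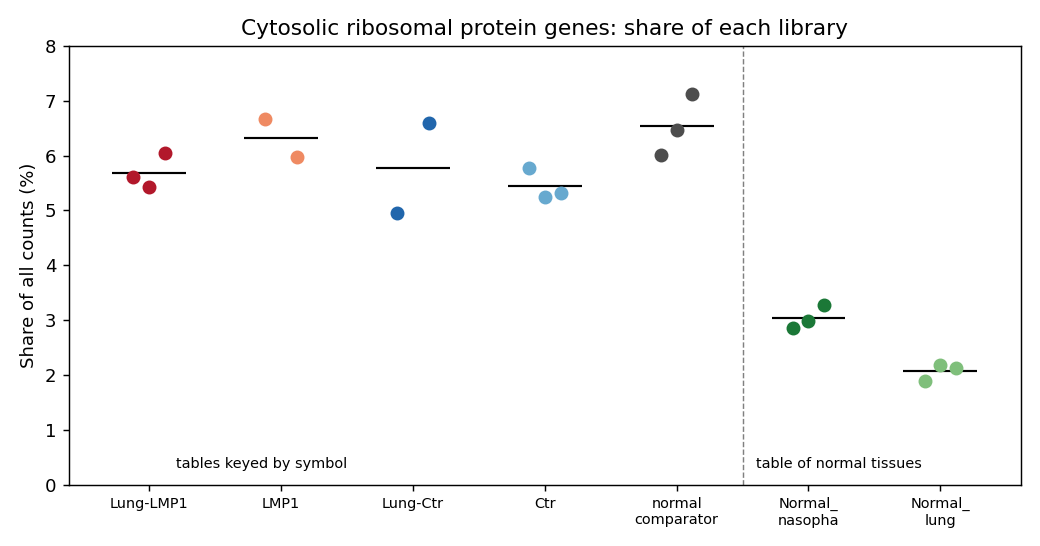
Share of all counts in cytosolic ribosomal protein genes (%) for each library, with horizontal bars at the group means. The 10 tumour libraries lie between 4.96 and 6.67%, and the Normal_nasopha and Normal_lung libraries, counted in another table (right of the dashed line), lie between 1.89 and 3.27%.

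The genotype comparison over all 10 tumour libraries asked how LMP1 goes with the levels of these genes, with the Lung prefix as a term. Of the 81 members, 76 passed the filter on low counts. Of those, 22 were higher and 7 lower in TMPL than in TMP (29 called, 38.2%), while 12.4% of all 13460 genes were called, 7.22% higher and 5.13% lower. The median log2 fold change of the 76 members was 0.19, and that of all genes was -0.05. Here and below, the values over all genes were not matched to the members in abundance. By subunit, 14 rose and 3 fell of 41 large subunit genes, 8 rose and 3 fell of 32 small subunit genes, and of the stalk genes only Rplp2 was called, as lower. The count was 14 without LMP1 replicate 1 and 12 without LMP1 replicate 2, and 37 with DESeq2, which called 23.3% of all genes. With each library corrected for its trend with transcript length and GC content it was 20, of which 18 are shared with the 29.

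Rpl28, a protein of the large subunit with no bacterial counterpart, was higher in the TMPL than in the TMP libraries. It had 459, 447 and 447 CPM in Lung-LMP1 and 708 and 606 CPM in LMP1, against 116 and 165 CPM in Lung-Ctr and 252, 91.4 and 114 CPM in Ctr. The lowest TMPL library was above the highest TMP library, and the log2 fold change was 1.91 (SE 0.27, edgeR Benjamini-Hochberg adjusted p = 0.00543).

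Rps28 sits near the messenger RNA exit of the small subunit. It stood at 151, 153 and 156 CPM in Lung-LMP1 and 240 and 214 CPM in LMP1, against 40.5 and 47.2 CPM in Lung-Ctr and 97.2, 47 and 42.4 CPM in Ctr. Again no library of either genotype overlapped the other, with a log2 fold change of 1.85 (SE 0.22, edgeR Benjamini-Hochberg adjusted p = 0.00443). In both genes Ctr replicate 1 was the highest of the TMP libraries.

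Rpl21, also of the large subunit, followed with 463, 431 and 473 CPM in Lung-LMP1 and 588 and 521 CPM in LMP1, against 171 and 206 CPM in Lung-Ctr and 255, 117 and 151 CPM in Ctr. Rps15, which reaches the decoding centre and the head of the small subunit, had 386, 341 and 393 CPM in Lung-LMP1 and 543 and 477 CPM in LMP1, against 158 and 223 CPM in Lung-Ctr and 229, 113 and 148 CPM in Ctr. Their log2 fold changes were 1.49 (SE 0.20) and 1.32 (SE 0.21), with edgeR Benjamini-Hochberg adjusted p of 0.00479 and 0.00761. In both genes the genotypes did not overlap and LMP1 lay above Lung-LMP1.

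Rpl35, a protein at the exit of the peptide tunnel, had 417, 351 and 405 CPM in Lung-LMP1 and 466 and 432 CPM in LMP1, against 143 and 220 CPM in Lung-Ctr and 302, 114 and 157 CPM in Ctr (log2 fold change 1.19, SE 0.25). Rpl36a, at the site where transfer RNA leaves, had 189, 167 and 167 CPM in Lung-LMP1 and 257 and 239 CPM in LMP1, against 82.8 and 119 CPM in Lung-Ctr and 100, 82.5 and 88.3 CPM in Ctr (log2 fold change 1.14, SE 0.15). Neither gene overlapped between genotypes. Both log2 fold changes passed the edgeR test, with Benjamini-Hochberg adjusted p of 0.0178 for Rpl35 and 0.00479 for Rpl36a. Rps10 (1.14), Rpl38 (1.12) and Rpl19 (1.09) had log2 fold changes of like size, and the other 13 higher members ranged from 0.48 (Rpl15 among the lowest) to 0.94 (Rpl7a and Rpl27a). Rpl38 is known in mice for its part in the translation of Hox messenger RNAs.

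**Figure D3:**
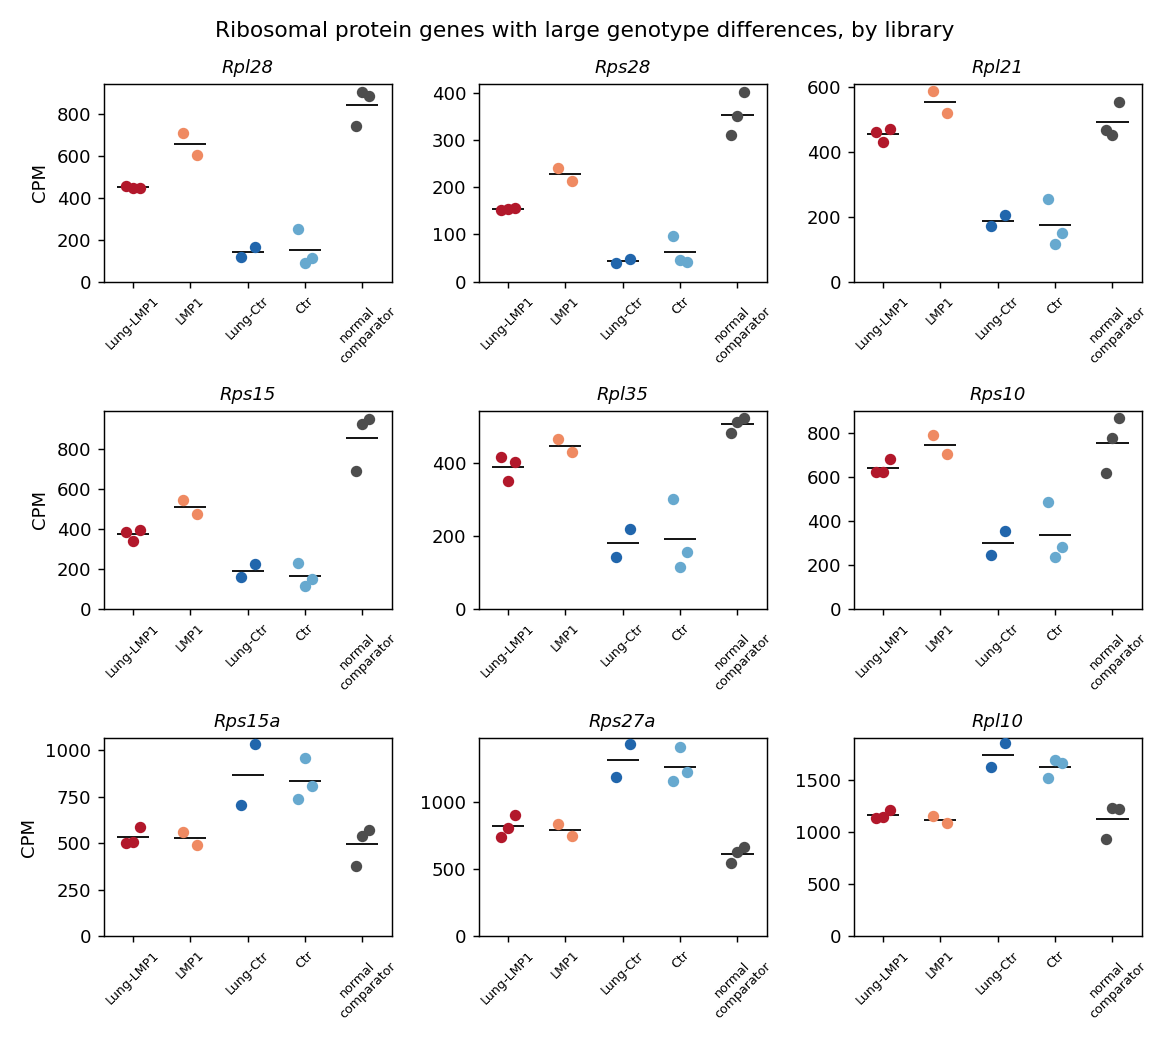
CPM of 6 ribosomal protein genes that were higher in TMPL (upper 2 rows) and 3 that were lower (bottom row), 1 point per library and a bar at each group mean. Rpl28 lies at 447 to 708 CPM in TMPL and 91.4 to 252 CPM in TMP, and Rpl10 at 1088 to 1218 CPM in TMPL and 1520 to 1863 CPM in TMP.

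The lower members were fewer and moved less. The largest decrease of any tested member, -0.78 on the log2 scale, was in a large subunit gene that was not called. Rpl35a, not called, had 187 to 219 CPM in Lung-LMP1 and 321 and 577 CPM in Lung-Ctr. Its LMP1 (243 and 275 CPM) and Ctr libraries (237 to 469 CPM) overlapped. Rps15a, of the small subunit, had 500, 503 and 588 CPM in Lung-LMP1 and 560 and 492 CPM in LMP1, against 704 and 1032 CPM in Lung-Ctr and 739, 958 and 809 CPM in Ctr. Rps27a, which is made as a fusion with ubiquitin, had 739, 808 and 901 CPM in Lung-LMP1 and 831 and 746 CPM in LMP1, against 1184 and 1430 CPM in Lung-Ctr and 1151, 1407 and 1219 CPM in Ctr. For both, every TMPL library lay below every TMP library. The log2 fold changes were -0.67 (SE 0.13) for Rps15a and -0.66 (SE 0.10) for Rps27a, with edgeR Benjamini-Hochberg adjusted p of 0.0132 and 0.00689.

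Rpl10, an X-linked gene whose protein completes the large subunit, had 1139, 1145 and 1218 CPM in Lung-LMP1 and 1159 and 1088 CPM in LMP1, against 1628 and 1863 CPM in Lung-Ctr and 1520, 1701 and 1668 CPM in Ctr. Its libraries did not overlap between genotypes, and its log2 fold change of -0.54 (SE 0.08) had the smallest error of the lower members (edgeR Benjamini-Hochberg adjusted p = 0.00689). Rplp2, an acidic stalk protein that binds elongation factors, had 348, 348 and 376 CPM in Lung-LMP1 and 482 and 444 CPM in LMP1, against 578 and 768 CPM in Lung-Ctr and 480, 597 and 605 CPM in Ctr. Its genotypes overlapped at LMP1 and Ctr, and its log2 fold change was -0.58 (SE 0.14, edgeR Benjamini-Hochberg adjusted p = 0.0297).

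Rps21 (-0.52), Rpl39 (-0.44) and Rpl37 (-0.37) were the other lower members on the log2 scale. Of the 29 called members 26 (89.7%) had libraries that did not overlap between the genotypes, against 61.2% of all called genes, and Rplp2, Rps29 and Rps9 did overlap. Over all tested genes, called or not, 31 of 76 members (40.8%) and 9.87% of genes did not overlap. After the length and GC correction Rps15a (adjusted p = 0.0813), Rps27a (0.0543), Rpl10 (0.054) and Rpl39 (0.0545) missed the threshold in edgeR with Benjamini-Hochberg adjustment, and Rps14, at -0.52, passed it (0.0311).

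Members named for their known roles outside this ranking mostly did not pass. Rpl11 was higher in TMPL, at 428, 383 and 406 CPM in Lung-LMP1 and 611 and 561 CPM in LMP1, against 250 and 366 CPM in Lung-Ctr and 247, 282 and 276 CPM in Ctr (log2 fold change 0.78, SE 0.16, edgeR Benjamini-Hochberg adjusted p = 0.0155). Its partner in binding Mdm2, Rpl5, had 1130, 1106 and 1397 CPM in Lung-LMP1 and 1216 and 1063 CPM in LMP1, against 930 and 1323 CPM in Lung-Ctr and 1224, 893 and 959 CPM in Ctr, which overlap (0.14, SE 0.14, adjusted p = 0.521). The labels give all these tumours as Trp53-/-. The log2 fold changes of Rplp0 (0.19), Rplp1 (0.14), Rpsa (0.09), Rpl3 (-0.14), Rps6 (-0.16), Rpl13a (-0.20) and Rps4x (-0.27) were not called.

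Genes for variant copies were not called or had almost no counts in the tumours. Rps27l, a relative of Rps27 that p53 is known to induce, had 150, 134 and 152 CPM in Lung-LMP1 and 144 and 149 CPM in LMP1, against 133 and 95.6 CPM in Lung-Ctr and 121, 134 and 141 CPM in Ctr (log2 fold change 0.26, SE 0.12, not called). Rps4l varied within groups, at 0.514, 24.5 and 9.39 CPM in the 3 Ctr libraries. Rpl10l, a copy used in the testis, had no count in any library, and Rpl3l and Rpl39l had at most 3 counts in a library. In these libraries 3 counts, taken as the floor, make 0.138 to 0.2393 CPM, and this floor covers counting error only. The 5 members that the filter left out were Rpl10l, Rpl3l, Rpl39l, Rpl26 and Rpl30.

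**Figure D4:**
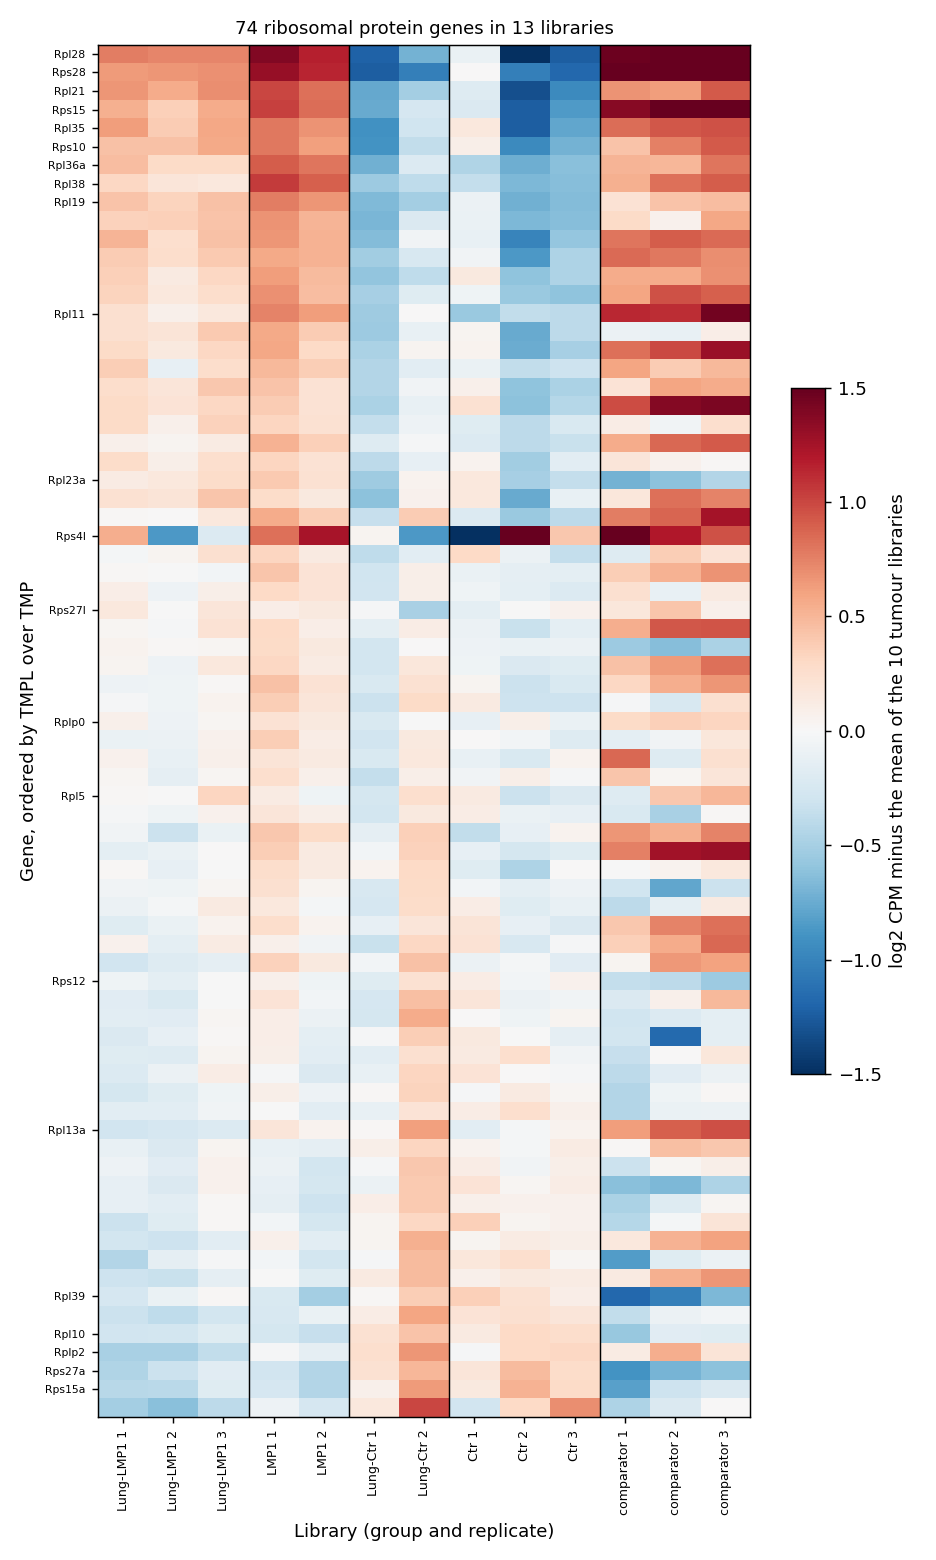
Log2 CPM of 74 ribosomal protein genes in 13 libraries (columns), each minus its mean over the 10 tumour libraries, in the order of the TMPL over TMP log2 fold change, with some of the genes labelled. The upper genes, from Rpl28 down, are high in Lung-LMP1, LMP1 and most comparator columns and low in Lung-Ctr and Ctr, Rps15a and Rps27a show the opposite, and Rps4l varies within groups.

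Within the libraries without the prefix, LMP1 against Ctr, 19 of 76 members were higher and 4 lower (23 called, 30.3%), and 16.4% of all genes were called, 7.36% higher and 9.06% lower. The median log2 fold change of the members was 0.31, against -0.01 for all genes. Rpl28 (2.08, SE 0.37), Rps28 (1.85, SE 0.31), Rpl21 (1.65, SE 0.28), Rps15 (1.62, SE 0.27), Rpl38 (1.51, SE 0.14) and Rpl36a (1.44, SE 0.18) had the largest log2 fold changes among called members, with edgeR Benjamini-Hochberg adjusted p between 0.00186 (Rpl38) and 0.0111 (Rpl28). The 4 lower members were Rps27a (-0.70), Rps15a (-0.69), Rpl39 (-0.61) and Rpl10 (-0.56). The libraries of the 23 did not overlap between the groups, nor did those of any of the 2210 genes called (100%), and 56.3% of all genes tested did not overlap. The count rests on few libraries: it was 1 without LMP1 replicate 1, 2 without LMP1 replicate 2, 15 without Ctr replicate 2, 12 without Ctr replicate 3, and 12, all higher, after the length and GC correction. DESeq2 called 30 members and 26.6% of all genes.

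Among the Lung-prefixed libraries, Lung-LMP1 against Lung-Ctr, edgeR called 0 of 76 members and 0 of 13460 genes (0%), with 32 members (42.1%) and 17.1% of all genes at an unadjusted p under 0.05. DESeq2 called 22 members, 13 higher and 9 lower, and 6.55% of all genes. The log2 fold changes of Rps28 (1.86, SE 0.34), Rplp2 (-0.86, SE 0.16) and Rpl19 (1.04, SE 0.20) had the smallest p, and each had an edgeR Benjamini-Hochberg adjusted p of 0.109. Rpl19 had 915, 858 and 924 CPM in Lung-LMP1 against 431 and 479 CPM in Lung-Ctr. Rpl28 had a log2 fold change of 1.73 here (SE 0.40, adjusted p = 0.123), and its Lung-LMP1 and Lung-Ctr libraries did not overlap either. The same held for 61.8% of members and 33.4% of all genes tested.

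The 2 genotype comparisons share no library, and the members moved alike in them. Across the 76 members their log2 fold changes had r = 0.908 and rho = 0.881, with the same sign in 66. Over all 13460 genes r was 0.081 and rho 0.266, with the same sign in 8539. The all-gene values were not matched to the members in abundance. In LMP1 against Ctr all genes ran from -12.69 to 9.37 and the members from -0.70 to 2.21, so the values over all genes are no like background. After the length and GC correction r over the members was 0.901 with the same sign in 57 of 76. Genes are not independent replicates, and the pairs share the alleles, the protocol and the counting, so these values are a description.

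**Figure D5:**
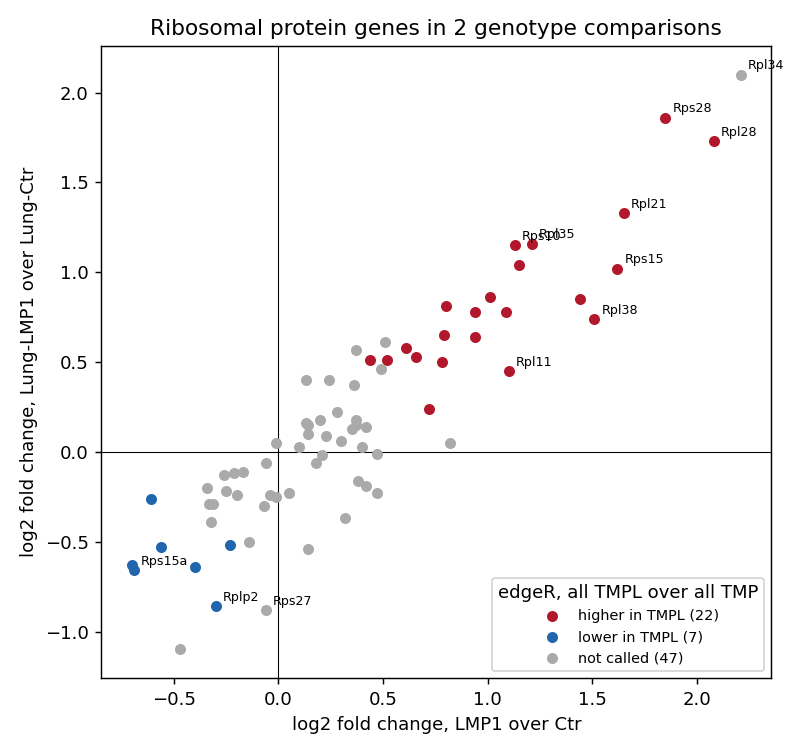
Log2 fold change of 76 ribosomal protein genes in LMP1 over Ctr (x) and Lung-LMP1 over Lung-Ctr (y), which share no library, coloured by the call in TMPL over TMP (22 higher, 7 lower, 47 not called). The genes lie along the diagonal from genes such as Rps15a and Rps27a at the lower left to Rps28 and Rpl28 at the upper right, while Rpl34, at the far upper right, has few counts.

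Few members differed by the Lung prefix. In Lung-LMP1 against LMP1 only Rpl38 was called (1 of 76, 1.32%, with 10.1% of all genes called, 6.17% higher and 3.95% lower). It had 169, 155 and 152 CPM in Lung-LMP1 against 282 and 254 CPM in LMP1 (log2 fold change -0.62, SE 0.14, edgeR Benjamini-Hochberg adjusted p = 0.0311), with no overlap. The call was absent without LMP1 replicate 1, LMP1 replicate 2, Lung-LMP1 replicate 2 or Lung-LMP1 replicate 3, and after the length and GC correction. Lung-LMP1 and LMP1 also did not overlap in 51.3% of members, 55.8% of all genes tested and 100% of the 1361 genes called. DESeq2 also called 1 member, Rpl38, and 18.8% of all genes.

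In Lung-Ctr against Ctr edgeR called 0 of 76 members and 0% of all genes, with 5 members (6.58%) and 5.33% of all genes at an unadjusted p under 0.05, and none called by DESeq2 (0.297% of all genes). The members' median log2 fold change was 0.12, and Rpl23 (0.41), Rpl29 (0.44) and Rpl13a (0.45), each with an adjusted p of 0.915, had the smallest p. Lung-Ctr replicate 2 stood above replicate 1 for most members: Rpl13a had 551 CPM in replicate 1 and 837 CPM in replicate 2, and the members' share of the library was 4.96 and 6.6%. The test of the difference between the genotype effects with and without the prefix called 0 of 76 members in edgeR (11, or 14.5%, at an unadjusted p under 0.05, against 15.6% of all genes, with 0.892% of all genes called, 0.81% positive and 0.0817% negative) and 3, all negative, in DESeq2 (6.88% of all genes). Rpl38 (-0.77 on the log2 scale, SE 0.20, edgeR Benjamini-Hochberg adjusted p = 0.125) and Rpl23 (-0.61) were among the 3 of smallest p for that difference.

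Other genes of the ribosome's life cycle, on lists chosen as companions, gave counts in TMPL against TMP that can be read beside the 12.4% background. Of the 7 ribosomal protein genes with other names 2 rose, Rpl36al (log2 fold change 1.02) among them, and none fell. Of 36 ribosome biogenesis genes 11 rose and none fell, with a median of 0.58. They include Nop10 (1.63), Nhp2 (1.33) and Gar1 (1.12), proteins of the particles that modify ribosomal RNA, the methyltransferase Fbl (1.23), and Polr1a (0.85) and Ubtf (1.11), which transcribe ribosomal RNA genes.

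Of 20 other genes with known or proposed TOP messenger RNAs, Eif3l (log2 fold change 0.50) rose and the noncoding Snhg8 (-0.63) fell. Of 10 genes that control translation, 4 rose: Larp1 (0.64), Eif4ebp1 (0.65) and Eif4ebp3 (0.99), which encode repressors of translation, and the kinase gene Rps6kb2 (0.70). Of 77 mitochondrial ribosomal protein genes 18 rose and none fell, with a median of 0.29.

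The normal comparator was set against Ctr to ask how the tumour organoids differ from normal ones, within the limit of its uncertain label. In Ctr 2 members were higher and 26 lower than in the comparator (28 of 76 called, 36.8%, against 22.4% of all 13034 genes tested, 9.67% higher and 12.7% lower). The median log2 fold change was -0.43, against -0.05 for all genes. The count was 33 with DESeq2 (33% of all genes), 12 without comparator replicate 3, 17 without Ctr replicate 1, 4 without Ctr replicate 2 and 6 without Ctr replicate 3. After the length and GC correction it was 19, 11 higher and 8 lower, with 9 shared calls and a median of 0.16, so the direction of the members as a group depends on that choice.

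Rps28 had 97.2, 47 and 42.4 CPM in Ctr against 310, 350 and 401 CPM in the comparator (log2 fold change -2.59, SE 0.36). Rpl28 had 252, 91.4 and 114 CPM in Ctr against 744, 905 and 885 CPM in the comparator (-2.55, SE 0.41). Rps15 had 229, 113 and 148 CPM in Ctr against 688, 926 and 949 CPM in the comparator (-2.46, SE 0.33). No Ctr library reached the comparator in these genes, and their edgeR Benjamini-Hochberg adjusted p were 0.0103, 0.0115 and 0.00978. Rpl11 (-1.75), Rpl21 (-1.57) and Rpl31 (-1.57) followed on the log2 scale. Between Ctr and the comparator 68.4% of members, 46.2% of all genes tested and 99.3% of all called genes did not overlap.

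The higher members were Rpl39 and Rps27a. Rpl39, a very small protein of the peptide tunnel, had 772, 707 and 646 CPM in Ctr against 266, 295 and 377 CPM in the comparator (log2 fold change 1.10, SE 0.23, edgeR Benjamini-Hochberg adjusted p = 0.0195). Rps27a had 1151, 1407 and 1219 CPM in Ctr against 543, 625 and 662 CPM in the comparator (0.97, SE 0.22, adjusted p = 0.0251). Neither overlapped. Rpl34, also among the 26 lower, had under 2 CPM in all these libraries.

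Rpl28, Rps28, Rps15 and Rpl21 stood lower in Ctr than in the comparator and higher in TMPL than in TMP. The Ctr libraries are part of TMP, so they enter the low side of both comparisons, which are not independent. Lung-LMP1 against Lung-Ctr and Ctr against the comparator share no library, and their log2 fold changes ran opposite to each other over 76 members (r = -0.783, rho = -0.722, the same sign in 15). Over all 12749 genes tested in both, r was -0.066 and rho -0.109. These are again values across genes, which are not independent. They were not computed after the length and GC correction, which turned the sign of the members' median in Ctr against the comparator. Over 8 proliferation markers Ctr summed to 2646 to 3303 CPM and the comparator to 189 to 2336 CPM, and their part in the difference was not tested.

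In the table of normal tissues, 78 of 82 members passed the filter, and Rpl24, Rpl10l, Rpl3l and Rpl39l did not. In Normal_nasopha 9 were higher and 1 lower than in Normal_lung (10 called, 12.8%), below the 31.1% of all 15886 genes, of which 15.4% were higher and 15.6% lower. The means of 73 of the 78 were higher in Normal_nasopha, with a median log2 fold change of 0.37 against 0.13 for all genes. The count was 1 without any single Normal_lung library, 17 without Normal_nasopha replicate 1, 6 without Normal_nasopha replicate 3, and 17 with DESeq2, which called 38.5% of all genes.

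Rpl12, of the stalk base, had 202, 226 and 212 CPM in Normal_nasopha against 67.5, 102 and 89.8 CPM in Normal_lung (log2 fold change 1.16, SE 0.19, edgeR Benjamini-Hochberg adjusted p = 0.0049). Rps20, of the small subunit, had 394, 579 and 515 CPM in Normal_nasopha against 232, 268 and 270 CPM in Normal_lung (0.80, SE 0.21, adjusted p = 0.028). The tissues did not overlap in either gene, nor in 75.6% of members, 53.1% of all genes tested and 99.6% of all called genes. Rpl10a (0.76), Rpl13 (0.73), Rplp2 (0.70), Rpsa (0.70), Rpl9 (0.66) and Rps27a (0.61) were among the other higher members.

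Rpl21 was the lower member, at 155, 150 and 177 CPM in Normal_nasopha against 208, 204 and 209 CPM in Normal_lung (log2 fold change -0.52, SE 0.16, edgeR Benjamini-Hochberg adjusted p = 0.0481). Rpl28 and Rps28, which led the tumour comparison, had log2 fold changes of 0.27 and 0.05 here and were not called. Of the 36 ribosome biogenesis genes 26 were higher and 1 lower in Normal_nasopha (75%), with a median of 1.31, and they include Gnl3 (2.19), Eif6 (1.97) and Gar1 (1.76). Over the 8 proliferation markers Normal_nasopha summed to 152 to 2042 CPM and Normal_lung to 196 to 429 CPM, which overlap, and their part was not tested.

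The members also varied among themselves in the tumours. Over the 10 tumour libraries the SD of log2 CPM was 0.12 for Rps12 and 0.13 for Rplp0, the lowest of the tested members whose mean log2 CPM was 3 or more, and 1.11 for Rpl28, 1.03 for Rps28 and 0.86 for Rpl21, the highest of these. Rps4l and Rpl34, whose means were below 3, had an SD of 1.54 and 1.88. Rps12 had 1228, 1159 and 1274 CPM in Lung-LMP1 and 1352 and 1223 CPM in LMP1, against 1133 and 1499 CPM in Lung-Ctr and 1383, 1249 and 1341 CPM in Ctr, which overlap throughout. Rpl14 (r = 0.98) and Rps13 (0.956) were among the 3 members that followed the mean of the members most closely over these 10 libraries, and among other genes Spen (0.955), Kmt2b (0.952) and Sfswap (0.946) did. These are descriptions over libraries of 4 groups. The members are short, with a median longest transcript of 1076 bases against 3350 over all genes tested, and a median GC content of 51% against 49.9%.

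The authors' deposited tables hold calls of their own at an adjusted p under 0.05. In LMP1 against Ctr the authors' deposited table has 24 members higher and 5 lower, with 27.7% of all genes that have an adjusted p called. The authors' deposited table of Lung-LMP1 against Lung-Ctr has 12 higher and 4 lower (3.42% of genes called), and that of Lung-LMP1 against LMP1 has 0 higher and 5 lower (26.2%). In the authors' deposited tables no member is called in Lung-Ctr against Ctr (0.222%), 3 are higher and 31 lower in Ctr against the comparator (28.8%), and 10 are higher and 2 lower in Normal_nasopha against Normal_lung (35.5%).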

How the data were processed

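The submitters' processing notes name STAR, DESeq, DESeq2 and the build mm10. Their versions, the tool that counted reads and its annotation are not stated there, in the labels or in the file headers. Raw counts were deposited by the authors, and all tests ran on these counts. Log2 fold changes with adjusted p-values were also deposited by the authors, and only their calls are quoted. A further 32 per-sample columns headed as TPM were not used. The 13 repeated count columns were identical.

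The test was that of edgeR 4.0.16 under R 4.3.3 (filterByExpr, TMM, robust quasi-likelihood F-test, Benjamini-Hochberg adjustment over all genes tested, adjusted p under 0.05). The 10 tumour libraries were fitted together with 4 group means and 6 residual degrees of freedom. TMPL against TMP took the Lung prefix as a term. The other 2 comparisons used 6 libraries each, and no fit joined both kinds of table. The fits were tested on simulated data. Alternatives were DESeq2 1.42.0, RLE size factors, TMM factors without the members, no low-count filter, each library left out, a fit of the compared groups alone, a replicate block, leaving out the prefix term, all 13 libraries of the symbol tables, and correcting each library for its trend with transcript length and GC (mgcv 1.9.3, also with its trend fitted without the members, which was chosen after seeing the data).

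Lengths and identifiers are from GENCODE vM21. The members, the companion lists, the tests and the rule for named genes were chosen with earlier results of these data known. The rule names, in each comparison, the 6 called members of largest log2 fold change per direction whose mean log2 CPM was 3 or more, or the 3 of smallest p where none is called. It also names 18 members by role, the 3 most and 3 least variable members, and the 3 members and 3 other genes most like the member mean. Other members named were chosen after their values were seen. A few of the rule's genes are not reported here. Per gene, reads shared with pseudogenes or copies are uncertain, and total counts of 12535166 to 21737184 per library limit precision.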

Additional observations from a re-analysis of the deposited data

How the results depend on the processing

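The count of called members moved by over 1.5 times in these cases. In LMP1 against Ctr (23) it was 12 with the length and GC correction with or without the members in its trend, and in Lung-LMP1 against Lung-Ctr (0) it was 22 with DESeq2. In Lung-LMP1 against LMP1 (1) it was 0 with either form of that correction and 2 with only the groups compared. In TMPL against TMP (29) it was 19 with the trend fitted without the members, in the interaction (0) it was 3 with DESeq2, and in Normal_nasopha against Normal_lung (10) it was 17 with DESeq2 and 3 with no filter on low counts. The median log2 fold change of the members in Ctr against the comparator (-0.43) was 0.16 with the correction and 0.18 with the trend fitted without the members.

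Leaving out 1 library put the members' median log2 fold change between -0.11 and 0.31 in Lung-LMP1 against Lung-Ctr, between -0.09 and 0.32 in Lung-Ctr against Ctr and between -0.36 and 0.06 in the interaction, with Lung-Ctr replicates 1 and 2 at the ends. It gave 1 to 24 calls in LMP1 against Ctr, 12 to 30 in TMPL against TMP, 0 to 1 in Lung-LMP1 against LMP1, 4 to 32 in Ctr against the comparator and 1 to 17 in Normal_nasopha against Normal_lung. Deviations from the group means correlated at -0.348 to 0.174 between same-numbered libraries of different groups, and at -0.473 to 0.425 between differently numbered ones. Deviations within groups of 2 or 3 libraries depend on each other, so these values cannot show whether the numbers pair the libraries. With the replicate number as a block the calls were 8 in LMP1 against Ctr, 0 in Lung-LMP1 against LMP1, 7 in Ctr against the comparator, 1 in Normal_nasopha against Normal_lung and 21 in TMPL against TMP.

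In TMPL against TMP 5 uncalled values turned sign: Rps4l was -0.01 and Rplp1 -0.12 with the correction, -0.00 and -0.11 with the trend fitted without the members, and Rpl13a 0.00 without Lung-Ctr replicate 2 (-0.29 to 0.00 over the libraries left out). Without the 20 most abundant other genes the members' share was 6.09% in Lung-LMP1 and 6.12% in Lung-Ctr, 6.77% in LMP1 and 5.76% in Ctr, 7.2% in the comparator, 3.35% in Normal_nasopha and 2.42% in Normal_lung. The cause of these shifts was not tested. Depth limits the precision of every value, more so at low counts.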
